A study of Mus musculus with 18 samples.

Results

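The genes described are 31 genes of cholesterol and fatty acid synthesis, taken as a list of symbols and matched to the deposited gene tables. All 31 were among the 24485 genes listed. They fall into 4 roles. There were 7 enzymes of the mevalonate arm and 11 that form squalene and carry it on to cholesterol, called squalene to cholesterol below. The others were 6 genes of sterol sensing and transport and 7 enzymes of fatty acid synthesis. RNA-seq was performed on bone marrow derived macrophages (BMDMs), which are macrophages grown from marrow cells in culture, from 3 Il10-/- mice on the C57BL/6J background, male and 12 weeks old per the study's methods. Every group carried the Il10 deletion, so no library came from cells with an intact Il10 gene. Cells were left untreated or pretreated for 12 h with 500 nM (+)-JQ1, an inhibitor of the BET family of acetyl-lysine reader proteins, or with 10 ng/mL IL-10, the cytokine these cells lack. LPS, a bacterial lipopolysaccharide sensed through TLR4, was then added at 50 ng/mL, or PBS in its place, for a further 4 h. This gave 6 groups of 3 libraries, named here unstimulated, JQ1, IL-10, LPS, LPS + JQ1 and LPS + IL-10, with replicates numbered 1, 2 and 3 in every group. The study's methods also name a vehicle control, while the titles call the cells without pretreatment untreated. Whether those cells received vehicle is not stated in the titles.

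Cholesterol is built from acetyl-CoA. The mevalonate arm makes isoprenoid units and joins them to farnesyl diphosphate, squalene is then formed and folded into lanosterol, and a chain of oxidations and reductions turns lanosterol into cholesterol. The transcription factor SREBP2, encoded by Srebf2, drives these enzymes when the sterol content of the endoplasmic reticulum is low: SCAP escorts it to the Golgi for cleavage, and the INSIG proteins hold it back when sterols are plentiful. SREBP1, encoded by Srebf1, acts more on fatty acid synthesis. In macrophages the pathway is known to respond to interferon and TLR signals, and side products such as 25-hydroxycholesterol have roles in host defence.

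Libraries held 6781952 to 28289498 expected counts, and replicate 2 of the unstimulated group was the shallowest, with the next at 12946996. A floor of 3 counts corresponded to 0.106 to 0.442 CPM. The macrophage list (7 of 8 listed symbols) summed to 14070 to 29055 TPM, most of it Lyz2 (group means 10214 to 24665). Its markers did not move together with JQ1. Itgam averaged 309.5 TPM unstimulated and 86.3 with JQ1, and 196.1 with LPS and 50.2 with LPS + JQ1. In resting cells Csf1r, Cd68 and Adgre1 were also lower with JQ1, and Lyz2, Mertk and Cd14 higher. During LPS, Cd68 and Mertk were also lower, and Csf1r, Adgre1, Lyz2 and Cd14 higher. Some of these differences were small: with LPS and LPS + JQ1, Csf1r averaged 613.0 and 636.4 TPM, Cd14 1736 and 1880, and Cd68 1253 and 1147. On log2(TPM + 1) the median of the expressed genes was itself 0.17 higher in LPS + JQ1. Ly6g, Adipoq and Lep were listed at 0 in all libraries, and the adipocyte list summed to 0 to 0.19 TPM. Other lists were low: dendritic cell 0.11 to 2.61, B cell 0.07 to 0.84, erythroid 0 to 1.23 and fibroblast 1.8 to 9.77 TPM, while the T cell list (1.83 to 8.62 TPM) was almost wholly Cd4. Neutrophil markers moved with JQ1, at 22.3 to 79.2 TPM unstimulated against 6.8 to 14.5 with JQ1, and 33.6 to 48.4 with LPS against 11.1 to 24.4 with LPS + JQ1; IL-10 gave 22.6 to 32.7 and LPS + IL-10 29.2 to 63.8. The endothelial list, carried by Kdr, was 7.89 to 9.98 TPM with LPS, 8.37 to 9.89 with LPS + IL-10 and 0.04 to 0.28 with LPS + JQ1, and 0.29 to 2.36 without LPS. The part of these lists in the results below was not tested. In bulk RNA, fewer cells of a type and less RNA per cell cannot be told apart.

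The targeted gene was still read. Unstimulated cells held 37.0, 27.1 and 33.5 normalised Il10 counts, LPS-treated cells 53.7, 61.0 and 74.9, LPS + JQ1 cells 118.2, 142.2 and 163.7, and LPS + IL-10 cells 134.0, 155.0 and 176.7. The count is over the whole gene and the deleted part was not examined, so it is no check of the genotype label.

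Promoter sequence was taken from RefSeq (GRCm38.p6, a later build than the mm9 of the expression data) as the 250 bases before and 50 after each start site. Windows were found for 25 of the 31 genes, and none for Fdps, Fdft1, Sqle, Stard4, Scd1 or Scd2. They were searched on both strands for 4 motifs, each counted on its own whether or not matches to different motifs overlapped: TCACNCCA, the core of the sterol regulatory element, CCAAT, the NF-Y box, GGGCGG, the GC box, and CACGTG, the E-box. The sterol element core was present for 3 of 25 members and for 4.97% of all genes with a window. The NF-Y box was present for 21 of 25 members against 41.1% of all genes, the GC box for 20 against 38.2%, and the E-box for 6 against 8.09%. A match is a description of the letters, and no binding was measured. The 3 windows with a sterol element core, of Hmgcs1, Srebf2 and Msmo1, are shown first, and those of Acat2 and Acly follow. They were picked with the JQ1 results known: the first 3 genes were lower with JQ1, and Acat2 and Acly were higher in LPS + JQ1 than in LPS. The core was absent from Idi1, Cyp51, Sc5d, Nsdhl and Insig1, also lower with JQ1 in resting cells, and from Mvk, Mvd and Ebp, not called there. Variants of TCACNCCA were not searched for, so absence of the core does not show that a window lacks a sterol element. A link between motif and JQ1 effect was not tested. Capitals mark the sterol element core and the NF-Y box on either strand (ATTGG is CCAAT read from the other strand). They lie at chr13:119690101-119690400 (plus strand), chr15:82147019-82147318 (plus), chr8:64733529-64733828 (minus), chr17:12960676-12960975 (minus) and chr11:100527951-100528250 (minus), in that order.
Hmgcs1: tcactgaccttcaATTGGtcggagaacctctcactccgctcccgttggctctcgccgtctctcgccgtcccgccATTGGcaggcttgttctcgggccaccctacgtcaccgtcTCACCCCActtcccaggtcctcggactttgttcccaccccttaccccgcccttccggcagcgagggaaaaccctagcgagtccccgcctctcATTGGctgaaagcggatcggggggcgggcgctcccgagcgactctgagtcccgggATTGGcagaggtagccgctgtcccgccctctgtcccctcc
Srebf2: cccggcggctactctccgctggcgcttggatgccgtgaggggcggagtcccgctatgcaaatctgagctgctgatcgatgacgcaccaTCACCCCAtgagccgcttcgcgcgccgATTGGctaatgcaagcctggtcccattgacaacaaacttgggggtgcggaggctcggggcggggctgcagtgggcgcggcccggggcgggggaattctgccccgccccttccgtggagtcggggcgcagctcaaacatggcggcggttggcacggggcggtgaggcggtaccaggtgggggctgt
Msmo1: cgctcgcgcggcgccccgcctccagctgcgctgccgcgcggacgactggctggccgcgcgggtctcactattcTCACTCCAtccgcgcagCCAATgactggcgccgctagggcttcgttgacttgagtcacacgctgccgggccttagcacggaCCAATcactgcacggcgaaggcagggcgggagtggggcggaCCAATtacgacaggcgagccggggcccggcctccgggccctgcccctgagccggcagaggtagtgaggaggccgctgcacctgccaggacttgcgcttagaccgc
Acat2: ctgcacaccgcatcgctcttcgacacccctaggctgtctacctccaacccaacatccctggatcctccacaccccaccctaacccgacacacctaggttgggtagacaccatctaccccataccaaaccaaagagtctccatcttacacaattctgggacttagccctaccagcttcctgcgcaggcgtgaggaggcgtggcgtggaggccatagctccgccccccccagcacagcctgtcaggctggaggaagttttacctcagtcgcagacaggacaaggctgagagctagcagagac
Acly: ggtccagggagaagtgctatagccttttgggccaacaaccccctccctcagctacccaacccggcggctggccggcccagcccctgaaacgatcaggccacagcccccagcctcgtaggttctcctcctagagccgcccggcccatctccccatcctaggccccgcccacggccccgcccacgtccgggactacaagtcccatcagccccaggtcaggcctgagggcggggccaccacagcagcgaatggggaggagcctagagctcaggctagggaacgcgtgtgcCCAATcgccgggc
The core began 137 bases before the start site of Hmgcs1, 162 before that of Srebf2 and 177 before that of Msmo1. The Hmgcs1 window held 4 NF-Y boxes and the Msmo1 window 3, the Srebf2 and Acly windows 1 each, and the Acat2 window none.

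Levels of different genes were compared on TPM, which is scaled by length. In unstimulated cells Acly (mean 74.5 TPM), which makes cytosolic acetyl-CoA from citrate, and Srebf2 (73.3 TPM) were highest, while Scd1 (0.52 TPM) and Elovl6 (1.08 TPM), a fatty acid desaturase and elongase, were lowest. The 31 members summed to 648.3 ± 65.1 TPM (SD, n = 3) unstimulated, 432.2 ± 11.2 with JQ1, and 719.9 ± 51.4 with IL-10. LPS libraries summed to 589.3 ± 23.9, those of LPS + JQ1 to 414.3 ± 10.4 and those of LPS + IL-10 to 797.8 ± 34.6. Libraries with JQ1 were the lowest in both states, at 419.7 to 441.6 and 403.0 to 423.4 TPM. TPM is a share of each library, and when it was rescaled by the median ratio across expressed genes the order of unstimulated and LPS libraries turned, at 535.4 against 753.0 TPM. The fatty acid genes summed to 135.3 ± 8.33 TPM unstimulated, 132.8 ± 0.667 with JQ1, 65.7 ± 3.75 with LPS and 123.6 ± 1.58 with LPS + JQ1. Acly carried most of that sum, at 44.6 TPM with LPS and 90.6 with LPS + JQ1, followed by Elovl5 at 12.2 and 21.3, while Fasn stood at 4.12 and 4.49 and Scd2 at 0.607 and 0.563. The lower Acly TPM with LPS was not seen in normalised counts, where its log2 fold change against unstimulated cells was 0.04 and did not pass the test.

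**Figure D1:**
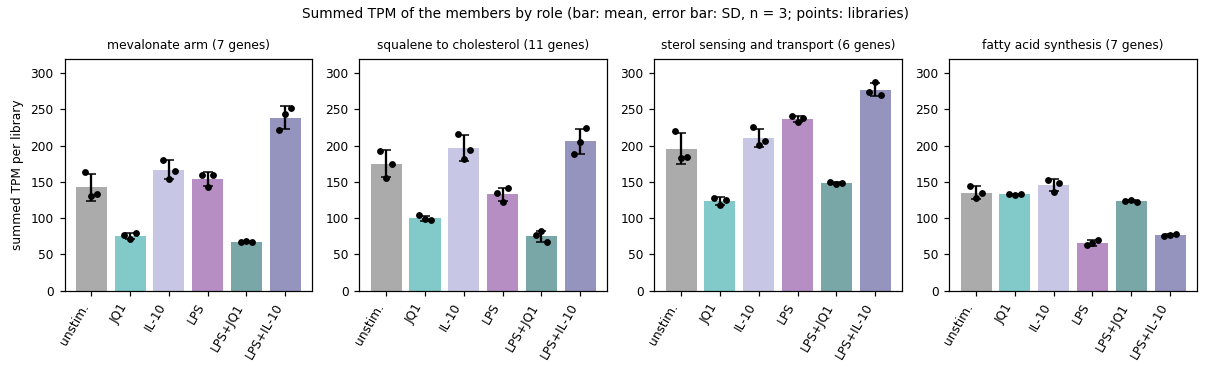
Summed TPM per library (vertical axis) for the members of each role in the 6 groups; bars are means, error bars SD of 3 libraries and points single libraries. The mevalonate arm stood at 75.7 TPM with JQ1 and 67.6 with LPS + JQ1 against 142.3 unstimulated and 153.8 with LPS, whereas fatty acid synthesis stood at 65.7 with LPS and 123.6 with LPS + JQ1, of which Acly made up 44.6 and 90.6.

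The first comparison asked what LPS did in cells without pretreatment. LPS split the pathway: 11 of 31 members were higher, 8 lower and 12 did not pass the test (DESeq2 Wald test, adjusted p under 0.05 over all genes tested). Of all 15285 genes tested, 30.8% were called higher and 32.2% lower, so the share of members called in each direction was near the background. The median log2 fold change of the members was 0.04, against -0.07 across expressed genes (10 or more counts in 3 or more libraries, 12251 genes). Those higher were Idi1, Hmgcs1 and Fdps of the mevalonate arm, Cyp51, Sc5d, Hsd17b7, Msmo1 and Fdft1 of the later steps, and Srebf2, Insig1 and Scap. Those lower were Mvk, Mvd, Lss and Dhcr7 and 4 of 7 fatty acid genes, Elovl6, Scd2, Fasn and Elovl5.

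Idi1 (mm9 chromosome 13, 8884852 to 8891641, plus strand), which isomerises isopentenyl diphosphate, had normalised counts of 229.9, 153.9 and 168.9 in the unstimulated replicates and 879.4, 753.8 and 987.1 with LPS. All 3 LPS libraries lay above all unstimulated ones, a log2 fold change of 2.23 (SE 0.189, DESeq2 adjusted p = 2.82e-31). Hmgcs1, which makes HMG-CoA and carries the sterol element shown above, had 914.1, 827.0 and 805.7 against 2910, 2415 and 2750 (log2 fold change 1.66, SE 0.0944, adjusted p = 2.34e-68 in DESeq2). Insig1 (chromosome 5, 28397952 to 28405201, plus strand), the sterol-regulated retention protein, had 862.5, 649.5 and 678.4 against 2060, 1880 and 2066 (log2 fold change 1.45, SE 0.0967, DESeq2 adjusted p = 1.14e-49). None of these groups overlapped.

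Scd2 (chromosome 19, 44368166 to 44381354, plus strand), a stearoyl-CoA desaturase, had normalised counts of 513.8, 455.0 and 400.2 unstimulated and 38.2, 37.2 and 44.2 with LPS, a log2 fold change of -3.52 (SE 0.206, DESeq2 adjusted p = 2.52e-64). Scd1 and Scd2 are close paralogs whose reads may be shared, so both are uncertain. Dhcr7 (chromosome 7, 151009050 to 151034315, plus strand), the reductase of the last step, had 351.0, 307.8 and 304.3 against 67.9, 61.0 and 61.4 (log2 fold change -2.35, SE 0.155, DESeq2 adjusted p = 6.53e-51). Elovl6 (chromosome 3, 129235304 to 129341413, plus strand) fell to 0, 1 and 4 expected counts with LPS from 60, 30 and 60, and its log2 fold change of -4.49 (SE 0.707, DESeq2 adjusted p = 6.35e-10) rests on those few counts. Thus Idi1 and Dhcr7, enzymes of the same pathway, moved in opposite directions. Ebp, a sterol isomerase, was called lower with the replicate block (adjusted p = 0.0263, against 0.056 without, both DESeq2).

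These directions depended on how libraries were scaled. LPS moved the median of the expressed genes to -1.0 under total-count scaling and to -0.7 on TPM. The members were then split 6 higher to 22 lower and 6 to 20. Among all genes tested, 2219 were higher and 8847 lower of 14966 under total-count scaling, and 2310 and 7641 of 11436 on TPM. The sign of Fdps, Fdft1, Msmo1, Hsd17b7 and Scap turned negative under total-count scaling, with Fdft1 and Msmo1 called lower and the other 3 not called. On TPM the sign of Fdps, Fdft1 and Msmo1 turned, with only Fdft1 called lower. The 6 other members called higher (Idi1, Hmgcs1, Insig1, Cyp51, Srebf2 and Sc5d) were higher under every scaling tried.

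**Figure D2:**
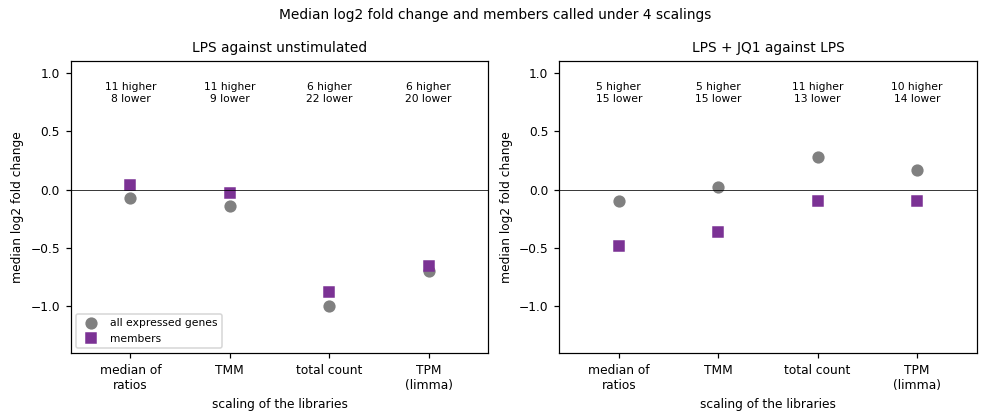
Median log2 fold change (vertical axis) of the expressed genes (grey circles) and of the members (purple squares) under 4 scalings of the libraries (horizontal axis), with the members called higher and lower printed above. For LPS the members moved with all genes, from 0.04 to -0.88 under total-count scaling, and for LPS + JQ1 they stayed below all genes in each scaling.

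JQ1 in resting cells was compared next. Of the 31 members 18 were called lower and 2 higher, against 23.1% and 21.3% of all 14006 genes tested, and the median log2 fold change was -0.61 for the members and 0.00 for the expressed genes. Among the 24 sterol genes 16 were lower and 1 higher. By role, 9 of 11 enzymes from squalene to cholesterol, 4 of 7 of the mevalonate arm, 3 of 6 sensing genes (Srebf2, Insig1 and Stard4) and 2 of 7 fatty acid genes (Fasn and Scd2) were lower. Tm7sf2, Ebp, Mvk, Mvd, Srebf1, Insig2, Scap, Acaca, Acly, Scd1 and Elovl6 did not pass the test. Acly had a log2 fold change of 0.16 and passed with the replicate block (DESeq2 adjusted p = 0.0285, against 0.0526).

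Fdps (chromosome 3, 88897514 to 88905881, minus strand), farnesyl diphosphate synthase, had normalised counts of 422.0, 319.7 and 307.7 unstimulated and 106.4, 108.4 and 117.2 with JQ1, a log2 fold change of -1.66 (SE 0.172, DESeq2 adjusted p = 1.2e-20). Stard4, a carrier of cholesterol between membranes, had 216.8, 162.4 and 191.0 against 59.7, 76.9 and 58.6 (log2 fold change -1.57, SE 0.167, DESeq2 adjusted p = 1.32e-19). Idi1 had 78.7, 60.1 and 65.0 with JQ1 (log2 fold change -1.45, SE 0.21, DESeq2 adjusted p = 6.46e-11). In each, the JQ1 libraries lay below all unstimulated ones.

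Acat2 (chromosome 17, 13135756 to 13153613, minus strand), the cytosolic thiolase that opens the mevalonate arm, went the other way. Its expected counts were not whole in 17 of 18 libraries, so RSEM split some of its reads with another gene and its values are uncertain to that extent. Its normalised counts were 57.9, 67.7 and 81.8 unstimulated and 198.0, 182.4 and 218.0 with JQ1, a log2 fold change of 1.52 (SE 0.166, DESeq2 adjusted p = 1.06e-18). Elovl5 (chromosome 9, 77765171 to 77832326, plus strand), an elongase of polyunsaturated fatty acids, had 532.3, 461.7 and 601.3 against 844.9, 878.3 and 799.5 (log2 fold change 0.65, SE 0.129, DESeq2 adjusted p = 2.63e-06). These 2 were the members called higher.

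The study's central comparison, JQ1 pretreatment during LPS, gave 15 members lower and 5 higher, against 32.9% and 24.4% of all 14326 genes tested. The median log2 fold change was -0.48 for the members and -0.10 for the expressed genes. Lower were 4 of 7 genes of the mevalonate arm (Hmgcs1, Pmvk, Idi1 and Fdps), 7 of 11 from squalene to cholesterol, and 4 of 6 sensing genes (Srebf2, Insig1, Scap and Stard4). No fatty acid gene was lower, and 3 of 7 (Acly, Elovl5 and Acaca) were higher. Under total-count scaling 11 members were higher and 13 lower, against 5524 and 2994 of all 14646 genes tested. On TPM 10 of 30 were higher and 14 lower, against 4932 and 2935 of 11436.

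Cyp51 (chromosome 5, 4081145 to 4104746, minus strand), lanosterol demethylase, had normalised counts of 1342, 1124 and 1168 with LPS and 209.8, 189.6 and 148.9 with LPS + JQ1, a log2 fold change of -2.72 (SE 0.138, DESeq2 adjusted p = 1.3e-84). Idi1 had 165.7, 166.4 and 105.9 with LPS + JQ1 (log2 fold change -2.58, SE 0.194, DESeq2 adjusted p = 3.81e-39), and Fdps 96.1, 94.8 and 99.7 against 646.1, 561.4 and 422.4 with LPS (log2 fold change -2.49, SE 0.178, DESeq2 adjusted p = 3.31e-43). All 3 genes had LPS + JQ1 libraries below every LPS library. For Cyp51 they also lay below every unstimulated library, which held 512.2, 404.2 and 408.9. Hmgcs1 was at 688.0, 668.7 and 600.7 in LPS + JQ1, also below its unstimulated counts. Srebf2, at 2843, 2461 and 2631, overlapped its unstimulated 2782, 2216 and 2022 and lay below its LPS counts of 6697, 6088 and 5110. On TPM that overlap was absent, with Srebf2 at 61.3, 58.0 and 59.5 in LPS + JQ1 against 88.0, 66.6 and 65.1 unstimulated. LPS + JQ1 was not tested against unstimulated cells.

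Acat2 was higher again, at 248.5, 236.9 and 267.1 with LPS + JQ1 against 94.7, 88.9 and 66.3 with LPS (log2 fold change 1.59, SE 0.168, DESeq2 adjusted p = 1.83e-20). Mvd (chromosome 8, 124957496 to 124967322, minus strand), mevalonate diphosphate decarboxylase, had 150.2, 110.6 and 153.9 against 94.7, 75.5 and 77.3 (log2 fold change 0.75, SE 0.219, DESeq2 adjusted p = 0.0015). Acly (chromosome 11, 100337667 to 100389314, minus strand) had 4110, 3621 and 3879 against 2421, 2447 and 2200 (log2 fold change 0.72, SE 0.0728, DESeq2 adjusted p = 6.99e-22). No groups overlapped for these 3 genes. The unlike course of members is seen in the plot of 12 genes by library.

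**Figure D3:**
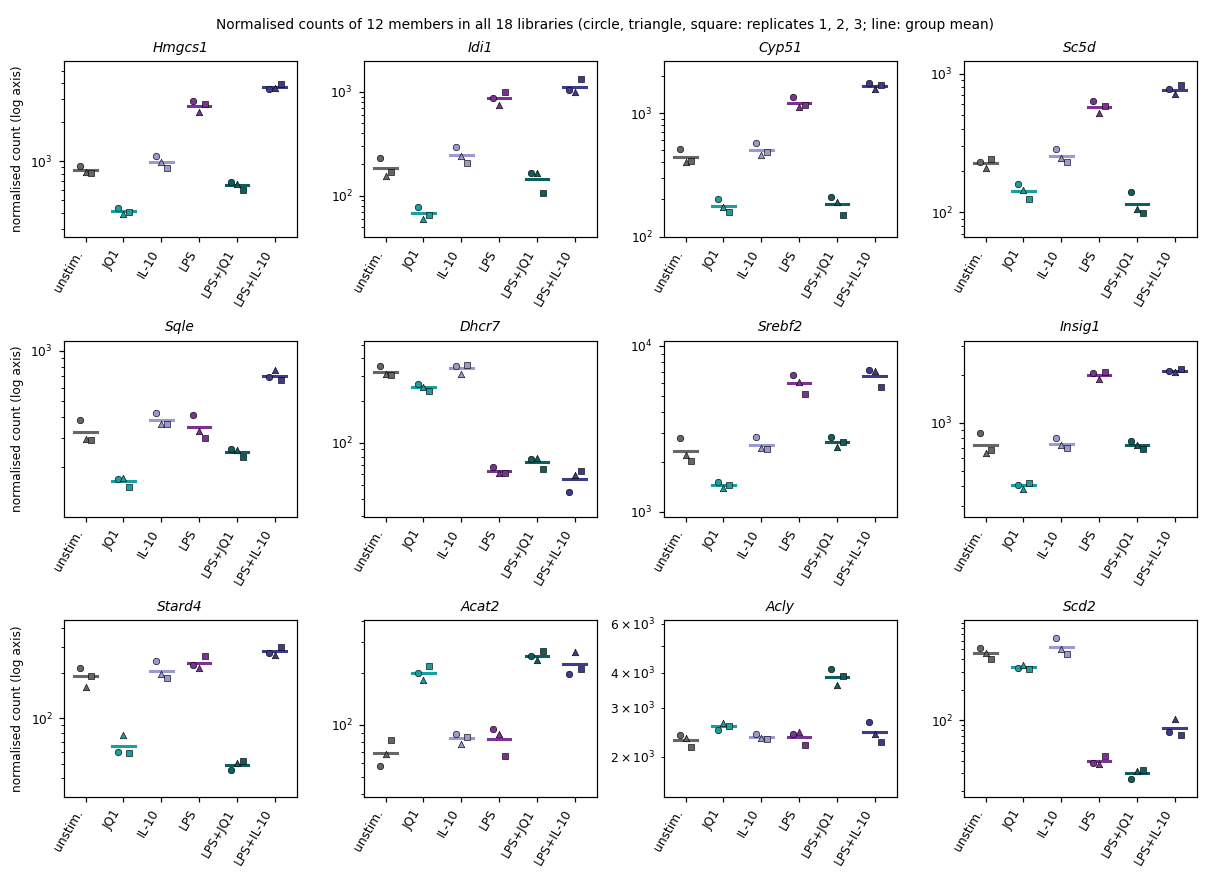
Normalised counts (log axis) of 12 members in each of the 18 libraries, grouped by treatment; circles, triangles and squares are replicates 1, 2 and 3 and lines are group means. Idi1 spanned 60.1 to 1324 across groups with JQ1 lowest in both states, Acly was highest in LPS + JQ1 at 3621 to 4110, and Dhcr7 and Scd2 were low in every LPS group.

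The JQ1 effect without LPS and that with LPS come from different libraries and can be set side by side. Across the 31 members, which are not independent replicates, Pearson's r was 0.799 and Spearman's rho 0.794, and 26 of 31 had the same sign. The like values over all genes were not computed, so these show no trait particular to the members. Several sterol genes had larger falls with LPS: Sc5d, a desaturase of the sterol ring, went from a log2 fold change of -0.67 to -2.32, and Cyp51 from -1.33 to -2.72. The interaction test, which asks whether the JQ1 effect differed with LPS, called 10 of 31 members lower and 4 higher, against 23.1% and 17.2% of 13046 genes tested. That split turned with scaling, at 8 lower and 8 higher with TMM factors, 3 and 12 with total counts, and 4 and 14 on TPM. Across all genes it was 2378 lower and 2873 higher of 13366 tested, 1011 and 5949 of 13687, and 1176 and 5661 of 11436. Hmgcs1, Cyp51, Sc5d and Acly kept their direction and their call under all 12 alternatives.

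**Figure D4:**
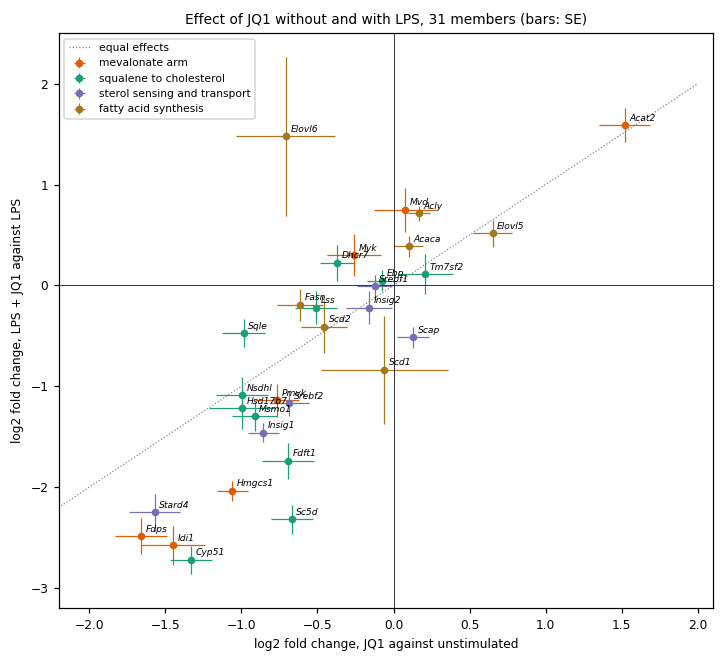
Log2 fold change of each member with JQ1 in resting cells (horizontal axis) and with JQ1 during LPS (vertical axis), coloured by role; bars are SE and the dotted line marks equal effects. Sc5d, Cyp51 and Hmgcs1 lie below the line, Acly and Elovl6 above it, and Acat2 stands apart at 1.52 and 1.59.

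IL-10 in resting cells called none of the 29 members that received an adjusted p (Scd1 and Elovl6 did not, being filtered as low), against 2.5% higher and 1.47% lower of 9211 genes tested. Hmgcs1, Idi1 and Pmvk, all of the mevalonate arm, had an unadjusted p under 0.05 in DESeq2, each with higher counts in 3 of 3 pairs of libraries. edgeR likewise called 0 members, with 3 at an unadjusted p under 0.05, and limma on log2(TPM + 1) called 1, Pmvk, with 5. The log2 fold changes of all members ranged from -0.15 to 0.42.

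IL-10 before LPS had another outcome. It raised 14 of 31 members and lowered 0 in DESeq2 (edgeR 13 and 0, with 0 lower at an unadjusted p under 0.05 in either), against 7.67% and 8.02% of all 12407 genes tested, and the median log2 fold change was 0.36 for the members and -0.02 for the expressed genes. Higher were 5 of 7 mevalonate genes (Acat2, Hmgcs1, Mvk, Mvd and Fdps), 7 of 11 from squalene to cholesterol (Sqle, Lss, Fdft1, Hsd17b7, Msmo1, Cyp51 and Sc5d), and Fasn and Scd2. None of the 6 sensing genes passed. The direction was higher in 3 of 3 pairs for 23 of 31 members. How many of all genes kept their direction over the pairs was not computed, so this count shows no trait particular to the members. Without replicate 2, 7 of the 30 members tested were called higher and 0 lower, against 487 and 387 of all 10939 genes tested. With all replicates, 952 and 995 of all 12407 genes were called. The members called under every alternative were Acat2, Hmgcs1, Fdft1, Sqle, Lss, Hsd17b7 and Fasn.

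Acat2 counts were 196.2, 263.0 and 211.0 with LPS + IL-10 against 94.7, 88.9 and 66.3 with LPS (log2 fold change 1.42, SE 0.17, DESeq2 adjusted p = 6.4e-15). Scd2 had 75.8, 103.4 and 71.2 against 38.2, 37.2 and 44.2 (log2 fold change 1.05, SE 0.226, DESeq2 adjusted p = 6.92e-05), still under its unstimulated counts. Sqle (chromosome 15, 59146632 to 59162747, plus strand), squalene epoxidase, had 698.3, 764.6 and 662.7 against 408.6, 330.9 and 298.3 (log2 fold change 1.04, SE 0.132, DESeq2 adjusted p = 2.62e-13). In all 3 genes the groups did not overlap. The interaction of IL-10 with LPS called 6 members higher and 0 lower, against 3.57% and 3.03% of 12087 genes tested. Without replicate 2 it called 0 members, against 174 higher and 117 lower of all 9999 genes tested.

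Both treatments during LPS were then compared directly. LPS + JQ1 was lower than LPS + IL-10 for 18 of 31 members and higher for 3, against 31.6% and 23.8% of 14326 genes tested. Total-count scaling gave 18 and 6, against 3139 and 4961 of all 14327 genes tested. Cyp51 had 1761, 1550 and 1685 normalised counts with LPS + IL-10, and the log2 fold change was -3.18 (SE 0.138, DESeq2 adjusted p = 1.6e-116). Fdps had 883.7, 907.5 and 710.5 (log2 fold change -3.1, SE 0.176, DESeq2 adjusted p = 7.72e-68) and Idi1 1050, 988.1 and 1324 (log2 fold change -2.94, SE 0.193, DESeq2 adjusted p = 7.1e-51). Acly (log2 fold change 0.66, SE 0.0727, DESeq2 adjusted p = 5.93e-19), Elovl5 (0.54, SE 0.135, DESeq2 adjusted p = 0.000172) and Acaca (0.28, SE 0.0994, DESeq2 adjusted p = 0.00889), the acetyl-CoA carboxylase that starts fatty acid synthesis, were the 3 higher. Acat2 differed by 0.17 (SE 0.148, DESeq2 adjusted p = 0.335), which gives no call.

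**Figure D5:**
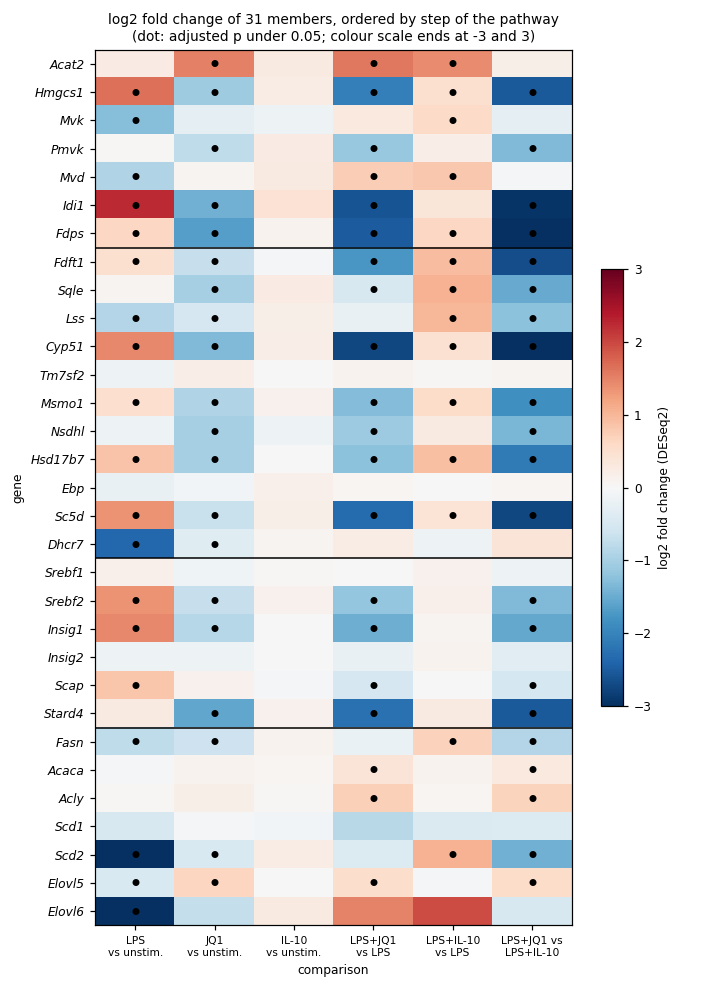
Log2 fold changes (colour, DESeq2) of the 31 members (vertical axis, in pathway order with lines between the 4 roles) in 6 comparisons (horizontal axis); dots mark an adjusted p under 0.05. The JQ1 columns are blue for most sterol genes, with 18 and 15 members called lower, and the LPS + IL-10 column holds 14 members called higher and none lower.

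Of 30 further genes of the pathway, 12 were higher and 10 lower with LPS (40.0% and 33.3%, against 30.8% and 32.2% of all genes tested). With JQ1 8 were higher and 10 lower (26.7% and 33.3%, against 21.3% and 23.1%), and in LPS + JQ1 against LPS 8 and 13 (26.7% and 43.3%, against 24.4% and 32.9%). LPS + IL-10 against LPS gave 2 and 1 of the 29 tested, against 7.67% and 8.02%, and LPS + JQ1 against LPS + IL-10 gave 9 and 12 of 30, against 23.8% and 31.6%. DESeq2 called none of the 24 tested with IL-10, against 2.5% and 1.47%. With LPS the largest changes were in Ch25h (mean normalised count 10.9 to 1294, log2 fold change 6.78, SE 0.259), the cholesterol 25-hydroxylase, and Pdss1 (log2 fold change 3.45, SE 0.234), of ubiquinone synthesis. In LPS + JQ1 against LPS, Ch25h had a log2 fold change of -5.15 (SE 0.189) and Nr1h3, the sterol receptor LXR alpha, -3.32 (SE 0.175). JQ1 in resting cells changed most Me1 (log2 fold change -3.14, SE 0.431), malic enzyme, and Fads2 (-2.45, SE 0.311), a desaturase. In LPS + IL-10 against LPS, Mid1ip1, a regulator of acetyl-CoA carboxylase, had a log2 fold change of 0.42 (SE 0.119).

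The annotation places exons of other genes over some members. RSEM was run with its default settings, which take no account of strand, and 26.9% of the exonic bases of Fdft1 lie over Ctsb, a cathepsin gene on the opposite strand, where reads of both cannot be told apart. On the same terms 18.9% of Scap lies over 5830462I19Rik. Tm7sf2 shares 15.3% with 1110014N23Rik on the same strand. Expected counts that are not whole show that RSEM split reads between genes: those of Fdft1 were not whole in 18 of 18 libraries, those of Acat2 in 17, of Scd1 and Scd2 in 12 each and of Lss in 4. The other 26 members, Scap and Tm7sf2 among them, had whole counts in every library. The genes over Scap and Tm7sf2 did not appear under those symbols in the gene tables, so whole counts do not show whose reads those stretches held, and both members remain uncertain there.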

How the data were processed

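RNA was measured in 18 libraries, 3 in each of 6 groups. Per the labels and methods, the authors prepared stranded, rRNA-depleted libraries, used STAR for alignment to mm9, and obtained gene values from RSEM 1.2.31. The deposited tables hold expected counts (5.4% to 6.63% of the values not whole within 0.001), TPM and FPKM, both scaled by the authors for length and depth. FPKM was not used here. Groups came from the sample titles, and members were matched by symbol. Some items of the lists are not reported here by name. The members and lists were chosen with earlier results of these data known.

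Expected counts were rounded and all 18 libraries were fitted with group as the only term in DESeq2 1.42.0 (R 4.3.3), with median-of-ratios size factors and Wald tests, calling genes at an adjusted p under 0.05. Independent filtering was left at its default level of 0.1. A run at 0.05 was added after the data had been seen, when call counts had been set beside an earlier analysis, and it is given as an alternative. Normalised counts are expected counts divided by the size factors. Alternatives used edgeR 4.0.16, limma 3.58.1 on log2(TPM + 1) for genes of at least 1 TPM in 3 libraries, TMM or total-count scaling, a filter of 10 counts in 3 libraries, only the groups compared, the sequencing lane, the replicate block, and leaving out each replicate. Scripts were tested on simulated data, where DESeq2's share of false calls exceeded the limit first set for it and the limit was then raised, so its calls may be mildly liberal. Tables were handled with Python 3.11.15, pandas 2.3.3 and matplotlib 3.10.9. For each comparison the text gives full statistics for the 3 members that rose most and the 3 that fell most among those called, requiring 10 or more normalised counts on average and one direction in all 3 pairs. Replicates of a group differed beyond sampling noise (chi-square per degree of freedom 4.14 to 30.5 over 18 pairs), so none was a duplicate. The highest values were those of replicate 3 against replicates 1 and 2, at 26.1 and 30.5 for LPS and 30 and 28.8 for LPS + IL-10. All other pairs were at 11.2 or less. Floors cover counting error only.

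The labels describe bone marrow of 3 mice, and replicate numbers were taken to mark the mouse, which the labels do not state for each library. The deviations of same-numbered libraries from their group means correlated on average at 0.2 for LPS against unstimulated, 0.172 for JQ1, 0.308 for IL-10, -0.087 for LPS + JQ1 against LPS, 0.566 for LPS + IL-10 against LPS and -0.117 for LPS + JQ1 against LPS + IL-10. For LPS + JQ1 against LPS, replicates 1, 2 and 3 gave 0.244, -0.214 and -0.292. The averages of the comparisons with LPS + JQ1 gave no sign of pairing. Agreement over same-numbered libraries there is not shown to be agreement within a mouse. Replicate 1 was sequenced in lane 7, replicate 3 in lane 8, and replicate 2 in lane 7 without LPS and lane 8 with it. Positions in mm9 come from GENCODE vM1 and were found for 30 members. Promoter windows and their build are those of RefSeq GRCm38.p6.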

Additional observations from a re-analysis of the deposited data

Results flagged for a closer look

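Effects that differed with and without LPS, tested as an interaction in DESeq2, were looked at again. The JQ1 effect was lower with LPS than without it by a log2 difference of -1.65 for Sc5d (SE 0.2, adjusted p = 3.76e-15), -1.4 for Cyp51 (SE 0.196, adjusted p = 1.61e-11) and -1.13 for Idi1 (SE 0.286, adjusted p = 0.000367), each in 3 of 3 sets of same-numbered libraries. It was also lower for Fdft1 (-1.04), Hmgcs1 (-0.99), Fdps (-0.82), Stard4 (-0.68), Scap (-0.64), Insig1 (-0.6) and Srebf2 (-0.49). It was higher for Dhcr7 (0.59, SE 0.214, adjusted p = 0.0167), Acly (0.55, SE 0.103, adjusted p = 6.51e-07) and Sqle (0.51, SE 0.197, adjusted p = 0.0269), and for Elovl6 (2.19) on few counts and in 2 of 3 sets. Of these 14, Hmgcs1, Cyp51, Sc5d and Acly kept their call under every alternative. Srebf2 changed sign under total-count scaling (0.06) and on TPM (0.01). Under total-count scaling Idi1 (-0.58), Fdps (-0.27), Fdft1 (-0.49), Stard4 (-0.12), Scap (-0.09) and Insig1 (-0.05) kept their sign and were not called. Stard4, Dhcr7 and Sqle lost their call whichever replicate was left out, and Elovl6 without replicate 1 or 2.

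The IL-10 effect was higher with LPS for Acat2 (log2 difference 1.14, SE 0.241, adjusted p = 0.00012), Fdft1 (0.95, SE 0.233, adjusted p = 0.00152), Hsd17b7 (0.9, SE 0.273, adjusted p = 0.0193), Scd2 (0.82), Lss (0.81) and Sqle (0.8), by the same DESeq2 test and in 3 of 3 sets each. None of these 6 was called by DESeq2 without replicate 2, where 4 members had an unadjusted p under 0.05, and edgeR on all libraries called 5 members. With the replicate block Fasn joined both interactions (0.43 for JQ1, DESeq2 adjusted p = 0.00244, and 0.59 for IL-10, DESeq2 adjusted p = 5e-05) and Mvd joined that for JQ1 (0.66, DESeq2 adjusted p = 0.0379).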

How the results depend on the processing

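Of 114 calls of members, 77 kept direction and call under all 12 alternatives. The replicate block and the lane term lost none of the 114, and the block added only Ebp with LPS, Acly with JQ1, and Fasn and Mvd in the interactions. The run with independent filtering at 0.05, chosen after seeing the data, changed no call of a member. Leaving out replicate 2 cost the most calls, with 25 of 114 lost, and the scaling gave all reversals. Under total-count scaling the LPS effect became -0.3 for Fdps, -0.45 for Fdft1, -0.41 for Msmo1, -0.08 for Hsd17b7 and -0.11 for Scap, and the LPS by JQ1 interaction of Srebf2 became 0.06. On TPM the same values were -0.13 for Fdps, -0.3 for Fdft1 and -0.24 for Msmo1, and 0.01 for Srebf2. limma called 1 member with IL-10 alone. Rescaled summed TPM was 535.4 (unstimulated), 399.4 (JQ1), 572.5 (IL-10), 753.0 (LPS), 433.6 (LPS + JQ1) and 946.1 (LPS + IL-10). Leaving out 1 replicate number at a time left 7 to 14 members called for LPS + IL-10 against LPS. For the LPS by JQ1 interaction it left 8 to 11, and for the LPS by IL-10 interaction 0 to 4. Each was lowest without replicate 2. Over all genes that run called 487 higher and 387 lower of 10939, 1519 and 2254 of 12193, and 174 and 117 of 9999, in that order. Apart from scaling, the causes were not tested. Depth limits Scd1 and Elovl6, which had few counts. The shallowest library, replicate 2 of the unstimulated group, is in neither group of LPS + IL-10 against LPS. Replicate 3 differed most from the other replicates in the LPS group (chi-square per degree of freedom 26.1 and 30.5). The same held in the LPS + IL-10 group (30 and 28.8). Whether this bears on the calls lost without replicate 2 was not tested.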
